A study of Drosophila melanogaster with 29 samples.

Results

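The prolyl 4-hydroxylase alpha genes of Drosophila melanogaster that carry the name PH4alpha are described here across males and females of 5 laboratory strains. Every probe set whose gene symbol starts with PH4alpha was taken, which gave 9 probe sets of 13966 (6 of 10844 genes measured under a single symbol), for 6 of the 8 genes of that name (PH4alphaNE1, PH4alphaNE2, PH4alphaNE3, PH4alphaSG2, PH4alphaEFB and PH4alphaMP). PH4alphaSG1 and PH4alphaPV were not analysed here. The family was selected on measured values of these same arrays, the differences of some members between the sexes and among the strains, so the members' values below are a description and carry no test.

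The RNA came from whole adult flies of the strains France (Kerbiniou), Antigua (Caribbean), Hikone (Japan, labelled as an Oregon R stock) and 2 Oregon-R stocks kept in Glasgow and in Cambridge. Males and virgin females were reared at 25 °C and collected 0 to 6 hours after eclosion, except that the label of France female replicate 3 gives 3 to 5 days. Each strain and sex had 3 arrays from separately collected and extracted groups of flies, except Hikone females with 2, which makes 15 male and 14 female arrays. The strains are wild-type stocks held for a long time in the laboratory, and no group carried a transgene or a treatment. Each strain name stands for 1 stock. By the paper's account, the Glasgow and Cambridge stocks go back to the same Oregon-R collection. All values are log2 expression values, so that a difference of 1 is a 2-fold difference. In whole flies, fewer cells of a type and less RNA per cell cannot be told apart.

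Prolyl 4-hydroxylase sits in the endoplasmic reticulum and hydroxylates prolines of collagen chains, which makes the collagen triple helix stable. The alpha subunit holds the catalytic site and works with iron, 2-oxoglutarate and ascorbate, and protein disulfide isomerase serves as the beta subunit. Flies have few collagen genes, foremost the type IV chains vkg and Col4a1 of basement membranes, and many alpha subunit genes. The members' names come from the embryo: EFB was named for the fat body, MP for the mouth parts, SG for the salivary gland, PV for the proventriculus, and NE for genes with no expression found there.

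The labels were checked first. SP, the sex peptide of the male accessory gland, lay between 10.64 and 11.91 in the males and between 1.07 and 1.26 in the females. Correlations between replicates were 0.987 or more in 8 groups, and went down to 0.975 in Cambridge males and 0.962 in Cambridge females. Cambridge male replicate 1 stood apart: the mean of 17 ovary, eggshell and yolk genes was 7.35 there and between 3.15 and 3.74 on the other male arrays, and yolk protein Yp1 was at 10.85. Cambridge female replicate 3 had a mean of 4.21 over 17 testis and sperm genes, against 3.13 and 3.17 in the other 2 Cambridge females. Without Cambridge male replicate 1 the member counts given below were the same, at 4, 0, 3 and 2, and the difference between the sexes was 3.97 for PH4alphaNE3 and 3.00 for PH4alphaNE2. Array numbers ran consecutively within each strain and sex, so array order and strain cannot be told apart.

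PH4alphaNE3 was the member with the highest values, and it was high in males of only some strains. With probe set 151549_i_at, the 3 Cambridge males read 10.67, 10.47 and 10.67, and the 3 Glasgow males read 9.96, 9.83 and 10.12. The France males read 8.88, 8.69 and 8.76. In the males of the other two strains the same probe set was as low as in females. The Antigua males read 3.14, 3.34 and 2.99, and the Hikone males 3.00, 2.91 and 2.84. All 14 female arrays lay between 2.92 and 3.50. No male array fell between 3.34 and 8.69.

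Within strains, the male level of PH4alphaNE3 was above the female level by 7.43 (SE 0.10) in Cambridge, 6.75 (SE 0.10) in Glasgow and 5.82 (SE 0.10) in France. On the linear scale these are ratios of 173, 108 and 56.4 in the deposited values. The female values were low in every strain and moved with the 10th percentile of the arrays (r = 0.70), so these ratios are set against values near the floor and may understate the difference. In Antigua the difference was 0.03 (SE 0.10), with overlapping arrays, and in Hikone it was -0.14 (SE 0.11), with all 3 males below both females. The average over the strains, 3.98 (SE 0.05), therefore described no single strain. The male group means, 10.60 (SD 0.12, n = 3) in Cambridge, 9.97 (SD 0.15, n = 3) in Glasgow, 8.78 (SD 0.10, n = 3) in France, 3.16 (SD 0.18, n = 3) in Antigua and 2.92 (SD 0.08, n = 3) in Hikone, spanned 7.69. The first 3 groups did not overlap with one another or with any other group, whereas the 7 groups below them overlapped in a chain from Glasgow females, 3.22 (SD 0.25, n = 3), to Hikone males, broken only between Hikone and France females. That span ranked 3rd among the 13966 probe sets, of which 0.465% had male group means that spanned 4 or more. The female group means of PH4alphaNE3 spanned 0.26.

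**Figure D1:**
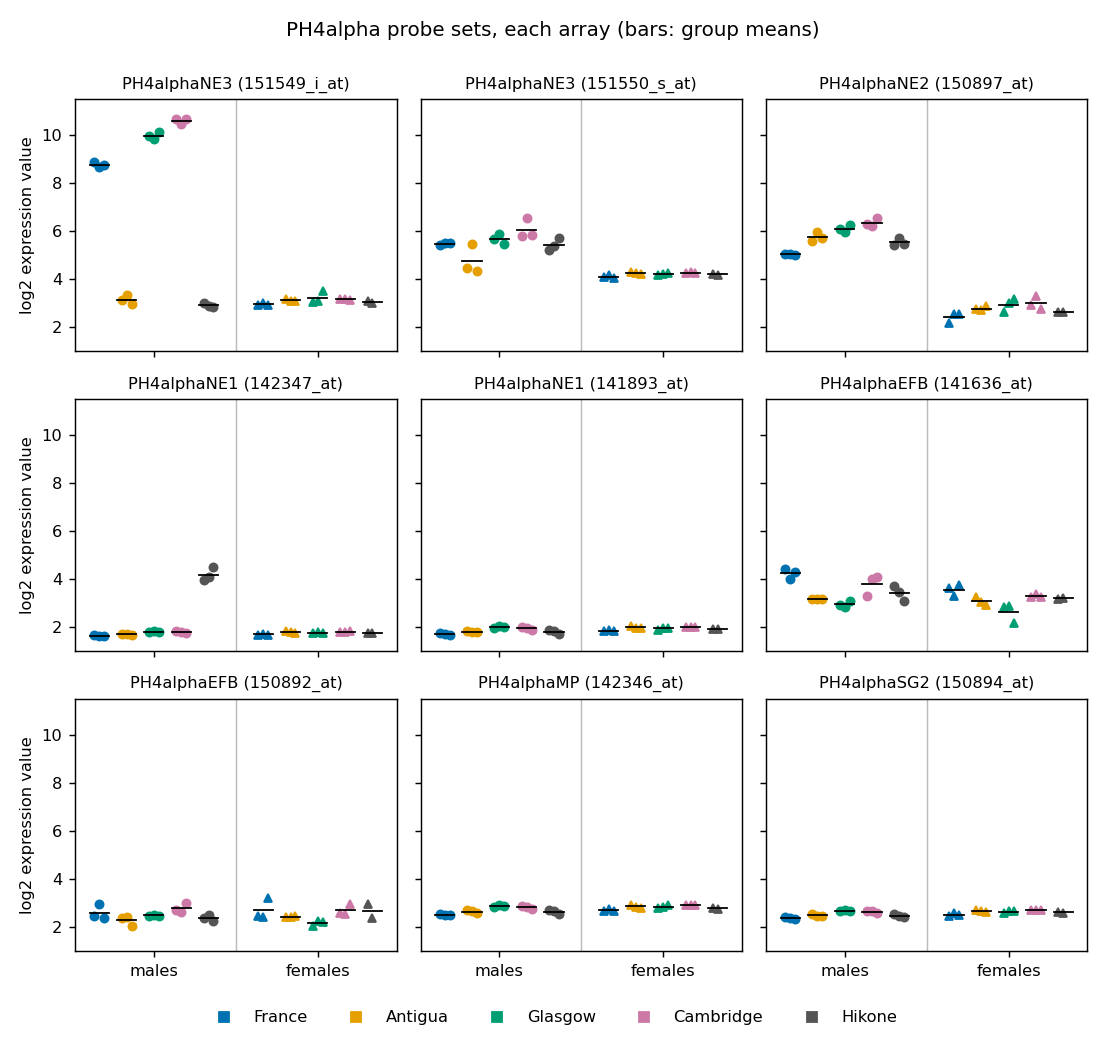
Log2 expression value (vertical axis) of the 9 PH4alpha probe sets on each of the 29 arrays, males as circles on the left and females as triangles on the right of each panel, coloured by strain, with a bar at each group mean. PH4alphaNE3 (151549_i_at) is at 8.69 or above in France, Glasgow and Cambridge males and at 3.50 or below elsewhere, PH4alphaNE2 is higher in all males than in any female, and PH4alphaNE1 (142347_at) leaves its floor only in Hikone males.

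The other PH4alphaNE3 probe set, 151550_s_at, showed a smaller difference with another strain order. The ending _s_at marks a probe set that may read more than 1 transcript, and _i_at one with fewer probe pairs than usual. The gene table (Release 6 assembly) also lists one older gene model under PH4alphaNE3 and under its neighbours CG31021 and CG31016. Which transcripts each probe set reads was not examined, and the strains' sequences at the probes were not analysed here.

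The Cambridge males read 5.80, 6.54 and 5.83 with 151550_s_at, the Glasgow males 5.69, 5.88 and 5.46, and the France males 5.45, 5.50 and 5.52. The Hikone males read 5.22, 5.40 and 5.71, and the Antigua males 4.49, 5.47 and 4.37. The 14 females lay between 4.04 and 4.31, below every male. These female values followed the 10th percentile of the arrays (r = 0.96). Differences with this probe set are thus also set against values near its floor and may be understated. The male group means were ordered Cambridge 6.06 (SD 0.42, n = 3), Glasgow 5.68 (SD 0.21, n = 3), France 5.49 (SD 0.04, n = 3), Hikone 5.44 (SD 0.25, n = 3) and Antigua 4.78 (SD 0.60, n = 3), and each neighbour in this order overlapped the next. Hikone males thus lay 1.24 (SE 0.23) above Hikone females with this probe set and at the female level with the other. Antigua males exceeded Antigua females by 0.50 (SE 0.21), which rested mainly on replicate 2. Over the 15 males the probe sets correlated at r = 0.65 (Pearson), a description over arrays that share strains.

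**Figure D2:**
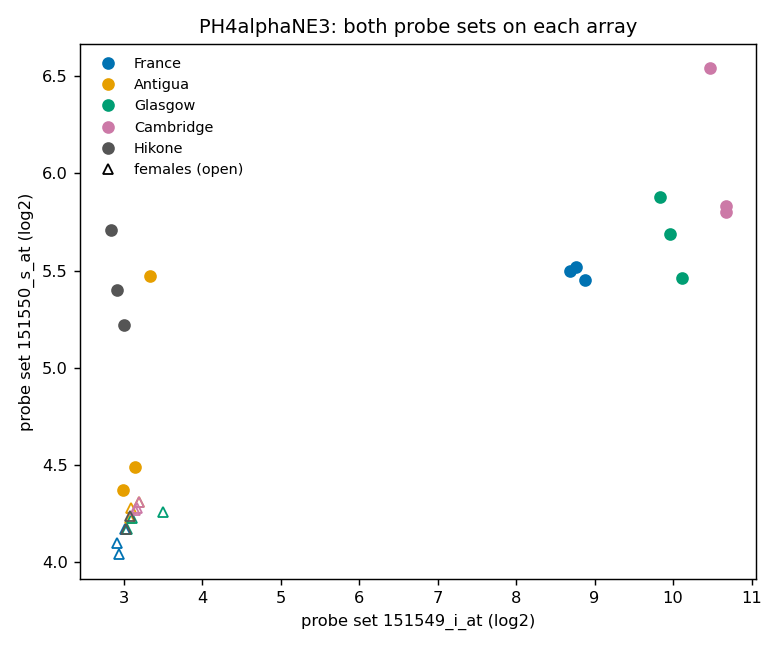
The PH4alphaNE3 probe sets against each other on the 29 arrays, 151549_i_at on the horizontal and 151550_s_at on the vertical axis (both log2), with males filled and females open, coloured by strain. The 3 Hikone males and Antigua male replicate 2 are between 5.22 and 5.71 on the vertical axis while they stay at 3.34 or below on the horizontal one.

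PH4alphaNE2 was higher in the males of every strain. With probe set 150897_at the Cambridge males read 6.31, 6.23 and 6.54, the Glasgow males 6.11, 5.96 and 6.26, and the Antigua males 5.58, 5.96 and 5.73. The Hikone males read 5.45, 5.71 and 5.48, and the France males 5.04, 5.04 and 5.03. The 14 females lay between 2.19 and 3.32, so that no female reached any male. The difference between the sexes was 3.00 (SE 0.07) on average, from 2.59 (SE 0.15) in France to 3.35 (SE 0.15) in Cambridge, ratios of 6.03 to 10.2 in the deposited values, again set against low female values (r = 0.72 with the 10th percentile). Among males, neighbouring groups in the order Cambridge, Glasgow, Antigua, Hikone overlapped, and France, at 5.04 (SD 0.01, n = 3), lay below all of them.

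The male level of PH4alphaNE2 moved with that of accessory gland genes. The mean of 12 of these genes, which code for seminal fluid proteins, was 11.73 in Cambridge, 11.44 in Glasgow, 11.12 in Hikone, 11.11 in Antigua and 10.56 in France males, and between 3.21 and 3.76 in the female groups. Over the 15 male arrays the correlation with PH4alphaNE2 was r = 0.94, as a description over arrays of shared strain, and it was 0.32 for PH4alphaNE3 (151549_i_at). Members near the floor shared it, with 0.84 for PH4alphaMP, 0.84 for PH4alphaSG2 and 0.83 for PH4alphaNE1 141893_at. In males PH4alphaNE2 also correlated at 0.61 with testis and sperm genes and at -0.84 with haemocyte and basement membrane genes. It correlated at 0.82 with larval salivary gland genes, a list near the floor, with means of 2.39 to 2.69 in the male groups. The link is thus not particular to PH4alphaNE2 or to the accessory gland list. The male PH4alphaNE2 values also followed the low end of each array, with r = 0.81 to its 10th percentile. The part of the accessory gland or of the low end of the arrays in the strain order was not tested. The probe sets most like PH4alphaNE2 over the 29 arrays were those of CG1701 (r = 0.993), CG17472 (r = 0.992) and Spn28B (r = 0.991), of which Spn28B is named as a serine protease inhibitor of the serpin family. Much of this likeness is the step between the sexes, and among the males alone the same correlations were 0.93, 0.95 and 0.93. For PH4alphaNE3 (151549_i_at) the most alike were CG32833 (r = 0.93), pros (r = 0.88), a homeodomain transcription factor of neural precursors, and Obp99b (r = 0.88), an odorant-binding protein. For 151550_s_at they were CG11018 (r = 0.95), CG30161 (r = 0.94) and rha (r = 0.93). Among the males alone these correlations were 0.89, 0.86 and 0.86 for 151549_i_at, and 0.79, 0.77 and 0.72 for 151550_s_at.

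PH4alphaNE1 left its floor in a single group. With probe set 142347_at the Hikone males read 3.99, 4.08 and 4.53, and all other 26 arrays lay between 1.64 and 1.83. Hikone males, at 4.20 (SD 0.29, n = 3), exceeded Hikone females, at 1.76 (SD 0.02, n = 2), by 2.44 (SE 0.09), a ratio of 5.41 in the deposited values. The female values followed the 10th percentile of each array (r = 0.98), so this ratio is set against the floor and may understate the difference. In the other four strains the difference was between -0.08 and 0.04. The Hikone male mean still lay below the median of all probe sets in that group, 4.48 on average over its arrays. Hikone was thus the strain in which PH4alphaNE1 (142347_at) left its floor and PH4alphaNE3 (151549_i_at) was low. The other PH4alphaNE1 probe set, 141893_at, did not show this: it read between 1.69 and 2.05 on all arrays, and its Hikone male mean of 1.81 (SD 0.07, n = 3) lay below the Hikone female mean of 1.94 (SD 0.02, n = 2).

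PH4alphaEFB, named for the embryonic fat body, varied by strain more than by sex, at low values. With probe set 141636_at the France males read 4.41, 4.03 and 4.29 and the France females 3.65, 3.30 and 3.75. The Cambridge males read 3.30, 4.0 and 4.09, and the Hikone males 3.73, 3.48 and 3.09. At the lower end, the Antigua males read 3.20, 3.19 and 3.20, the Glasgow males 2.94, 2.85 and 3.11, and the Glasgow females 2.84, 2.91 and 2.18. France males were at the top, at 4.24 (SD 0.19, n = 3), and Glasgow females at the bottom, at 2.64 (SD 0.40, n = 3). Neighbouring groups overlapped throughout this order except Cambridge and Hikone females. Males and females did not overlap only in France, where males were higher by 0.68 (SE 0.20), and the mean difference was 0.37 (SE 0.09). The second PH4alphaEFB probe set, 150892_at, lay between 2.05 and 3.21 on all arrays, with a mean difference between the sexes of -0.02 (SE 0.09).

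PH4alphaEFB (141636_at) correlated with the mean of 13 haemocyte and basement membrane genes at r = 0.67 over the 15 males and at r = 0.75 over the 14 females. That mean was 6.18 in France males, 5.81 in Hikone males and between 5.29 and 5.34 in the other male groups, and 5.03 in Glasgow females against 5.96 to 6.19 in the other female groups. The second probe set, 150892_at, correlated with the haemocyte and basement membrane mean at r = 0.05 over the males and 0.59 over the females. In females 141636_at also correlated with the ovary, eggshell and yolk genes, at r = 0.62, against -0.12 in males. The part of any of these cells or tissues in the PH4alphaEFB values was not tested.

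PH4alphaMP and PH4alphaSG2, named for the mouth parts and the salivary gland of the embryo, stayed near the floor of the arrays. PH4alphaMP (142346_at) read between 2.50 and 2.93, and PH4alphaSG2 (150894_at) between 2.36 and 2.74. Together with 141893_at of PH4alphaNE1 these probe sets followed the 10th percentile of each array, with r between 0.94 and 0.97, and one another, with r between 0.98 and 0.99. Their male minus female differences were -0.12 for PH4alphaMP, -0.095 for PH4alphaSG2 and -0.09 for PH4alphaNE1 141893_at. The median of all probe sets was 0.12 higher in males, and with each array set to its own median the differences became -0.25, -0.22 and -0.21, past the threshold used below. In that setting 72.2% of all probe sets passed it. The larval salivary gland genes, of which 8 were measured, had a mean between 2.39 and 2.69 in the male groups.

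**Figure D3:**
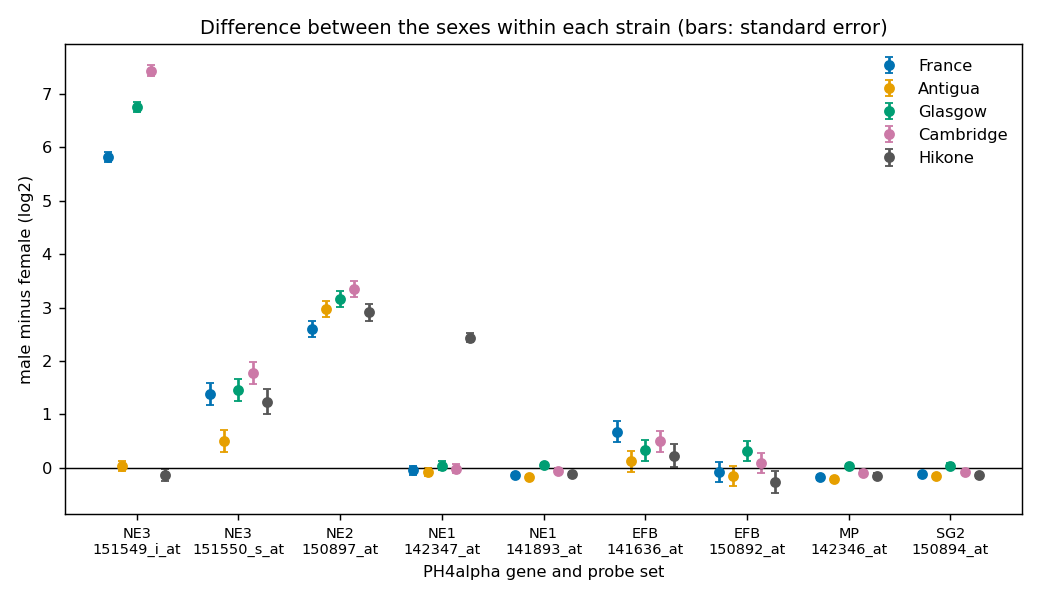
Male minus female difference in log2 expression value (vertical axis) of each PH4alpha probe set (horizontal axis), 1 point for each strain with its standard error from the linear model. PH4alphaNE2 lies between 2.59 and 3.35 in all strains, PH4alphaNE3 (151549_i_at) between 5.82 and 7.43 in 3 strains and near 0 in Antigua and Hikone, and PH4alphaNE1 (142347_at) is at 2.44 in Hikone only.

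For the family as a whole, limma was fitted to all 13966 probe sets, and a probe set counted as called at a Bonferroni-adjusted p under 0.01. Averaged over the strains, 4 of the 9 member probe sets were called between the sexes, beside 46.8% of all probe sets. All 4 were higher in males, beside 18.1% of all probe sets called higher in males. Of the 4, 3 were over 2-fold higher in males on that average, beside 13.1% of all probe sets. Every male array was above every female array for 2, beside 9.75%. For PH4alphaNE1 142347_at the average came from Hikone (2.44), with differences between -0.08 and 0.04 in the other strains. PH4alphaNE3 151549_i_at had differences of only 0.03 in Antigua and -0.14 in Hikone. Among strains, 3 of the 9 were called in males (PH4alphaNE1 142347_at, PH4alphaNE2 and PH4alphaNE3 151549_i_at), beside 9.67%, and 0 in females, beside 6.53%. At an unadjusted p under 0.05 the count among strains in females was 6 of 9, and 69.3% of all probe sets passed that mark. For the interaction of sex and strain, 2 were called (PH4alphaNE1 142347_at and PH4alphaNE3 151549_i_at), beside 2.56%. The call of PH4alphaNE2 among strains in males was lost without any 1 of the 3 France males or without Cambridge male replicate 3. Without Antigua male replicate 2, 151550_s_at joined the calls among strains in males. A highest group mean of 5 or more was reached by 3 of the 9 member probe sets, beside 58% of all, through males alone. Because these contrasts are the ones for which the family was chosen, nothing is read from the counts.

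The median male minus female difference was 0.37 over the 9 member probe sets and -0.08 over all probe sets. The median span of the group means was 1.28 in males and 0.21 in females for the members, against 0.45 and 0.38 for all probe sets.

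All 8 PH4alpha genes lie on chromosome arm 3R, in a stretch of 35 genes of the Release 6 gene table that starts with PH4alphaEFB and ends with PH4alphaPV. PH4alphaSG2, PH4alphaMP and PH4alphaNE1 follow one another there, and the table has PH4alphaSG2 and PH4alphaMP overlap. PH4alphaSG2 and PH4alphaMP were both flat, and CG15539 and PH4alphaNE2, with only genes not analysed here between them, both had every male above every female. Other neighbours differed. With probe set 142347_at, though not with 141893_at, PH4alphaNE1 left its floor in Hikone males only. PH4alphaMP beside PH4alphaNE1 stayed at its floor, and CG15539, 3 genes on, was higher in the males of every strain. Beside PH4alphaNE3, CG31016 read between 2.78 and 3.61 on all arrays, with a difference between the sexes of -0.03 (SE 0.04). CG2246, an unrelated gene 3 places before PH4alphaNE3, was higher in females by about the same amount in every strain, with a mean difference of -1.06 (SE 0.05). The strongly male-higher CG2267, with 6.09 (SE 0.09), lies 5 genes beyond PH4alphaNE3, and its difference was between 5.83 and 6.35 in all strains.

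**Figure D4:**
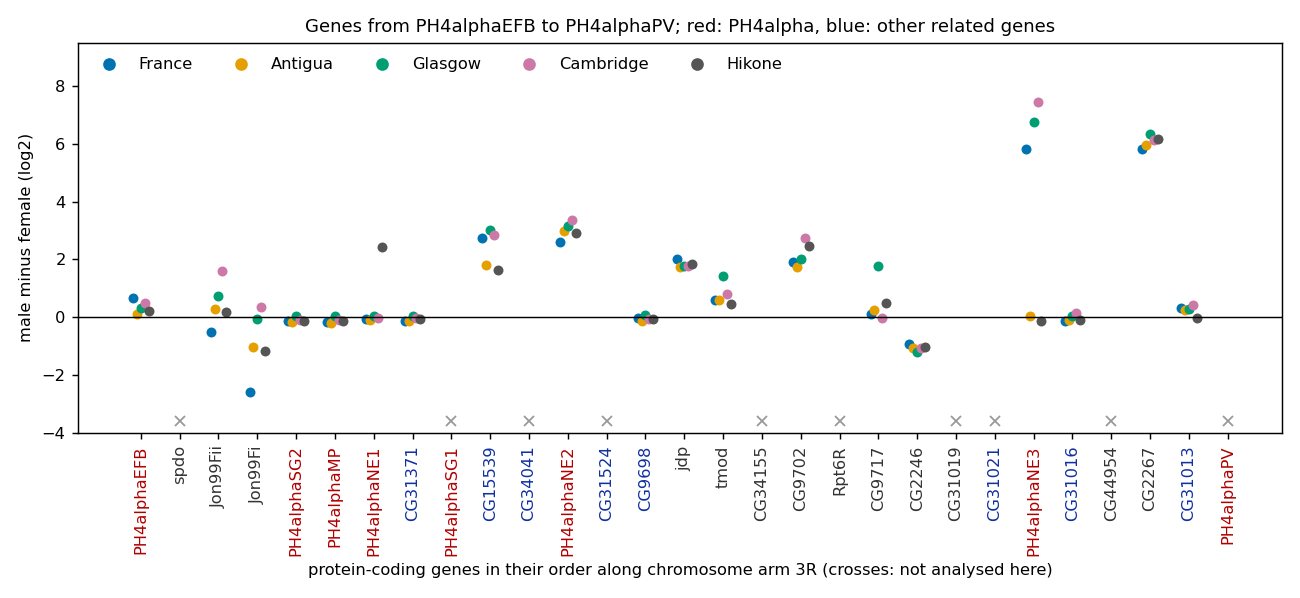
Male minus female difference in log2 expression value (vertical axis) of the protein-coding genes from PH4alphaEFB to PH4alphaPV, in their order along chromosome arm 3R and not to the scale of distance (horizontal axis), 1 point for each strain (the probe set with the highest group mean where a gene has several), with crosses for genes not analysed here. PH4alphaNE3 splits into 3 strains at 5.82 or more and 2 strains near 0, whereas PH4alphaNE2, jdp, CG9702 and CG2267 have their 5 strains close together.

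Beside the named family, 18 further genes are related to the prolyl 4-hydroxylase alpha subunit from background knowledge, with no comparison of sequences, and 13 of them had a probe set, 1 each. Between the sexes 6 of the 13 were called, beside 46.8% of all probe sets, a share about equal to that background. On the average over the strains, all 6 were over 2-fold higher in males, beside 13.1%, and 0 were called higher in females, beside 28.8%. In every single strain this held for CG32199, CG15539 and CG18234. In France the difference was -0.02 for CG18231, -0.20 for CG18233 and 0.36 for CG15864. In Hikone it was 0.11 for CG18233 and 0.61 for CG18231. Median differences were 0.46 over these 13 and -0.08 over all probe sets. The largest difference was that of CG32199, 2.51 (SE 0.10, limma Bonferroni-adjusted p = 1.1e-12), and CG15539 followed with 2.41 (SE 0.11, adjusted p = 9.7e-12). CG18234 was higher in males by 1.68 (adjusted p = 2.0e-07), CG18233 by 1.39 (adjusted p = 0.00045), CG18231 by 1.29 (adjusted p = 0.0022) and CG15864 by 1.19 (adjusted p = 4.0e-09). CG18231 alone of these lost its call when 1 array was left out, with adjusted p = 0.010 without Hikone female replicate 1 and 0.013 without replicate 2.

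CG15539 lies between PH4alphaSG1 and PH4alphaNE2 on 3R and, like PH4alphaNE2, had every male above every female. Its males lay between 5.36 and 7.21 and its females between 2.68 and 4.26, the male group means being highest in Glasgow, at 7.03 (SD 0.16, n = 3), and lowest in Hikone, at 5.59 (SD 0.22, n = 3). CG32199 had males between 5.79 and 7.24 and females between 3.66 and 4.44.

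Among the related genes on chromosome arm 3L, the order was CG4174, which was not analysed here, CG18234, CG18233, CG18231, CG32201 and CG32199. Whether other genes lie between them was not examined. The male levels of several of these related genes varied by strain. The Antigua males read 5.99, 6.96 and 6.27 for CG18233, the Glasgow males 5.04, 4.80 and 5.50, and the Cambridge males 4.78, 4.15 and 6.50. The Hikone males read 3.19, 3.41 and 2.95 and the France males 2.80, 2.75 and 2.78, while all females lay between 2.91 and 3.31. The male order was thus not that of PH4alphaNE3: CG18233 was highest in Antigua, where PH4alphaNE3 (151549_i_at) was at the female level, and at the female level or below it in France, where PH4alphaNE3 was high. CG18231 also varied by strain in males, with wide scatter between replicates and no clear division. Its Glasgow males read 6.87, 7.16 and 7.31, its Cambridge males 7.23, 7.10 and 5.60, its Antigua males 6.76, 6.79 and 5.09, its Hikone males 5.55, 4.71 and 5.18, and its France males 4.51, 4.49 and 4.32, beside females between 4.39 and 4.82. The Hikone males thus lay between the high groups and France and reached into the female range. CG32201 was highest in Cambridge males, at 4.97 (SD 0.09, n = 3).

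Among strains in males 4 of these 13 genes were called by limma, beside 9.67% of all probe sets: CG18233 (adjusted p = 6.6e-05), CG32201 (adjusted p = 0.0024), CG15864 (adjusted p = 0.0032) and CG34345 (adjusted p = 0.0037), the last with all its values between 2.32 and 2.73. CG18231 was not called with all arrays, and was called without Antigua male replicate 3 or without Cambridge male replicate 3. The count of 4 fell to 1 without France male replicate 1, and to 2 without France male replicate 2 or 3 or without Cambridge male replicate 1 or 2. The call of CG18233 was the one that held with each of the 29 arrays left out in turn. CG15864 reached an adjusted p of 0.15 without France male replicate 1 or 2 and 0.010 without Antigua male replicate 1 or 3. CG32201 lost its call without France male replicate 1 (adjusted p = 0.011) or 3 (0.014) or any Cambridge male (0.018 to 0.046), and CG34345 without any France male, Glasgow male replicate 2 or 3 or Cambridge male replicate 1 or 2 (0.012 to 0.052). By limma 0 of the 13 were called among strains in females, beside 6.53% of all probe sets, and 0 for the interaction, beside 2.56%. At an unadjusted p under 0.05 the counts were 4 and 9, and 69.3% and 55.4% of all probe sets passed that mark. Leaving out Cambridge male replicate 2 or 3 called CG18233 for the interaction, and leaving out Hikone male replicate 1 or 3 called CG32201. The relatives CG9698, CG31371 and CG34345 read between 1.91 and 2.76 on all arrays.

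**Figure D5:**
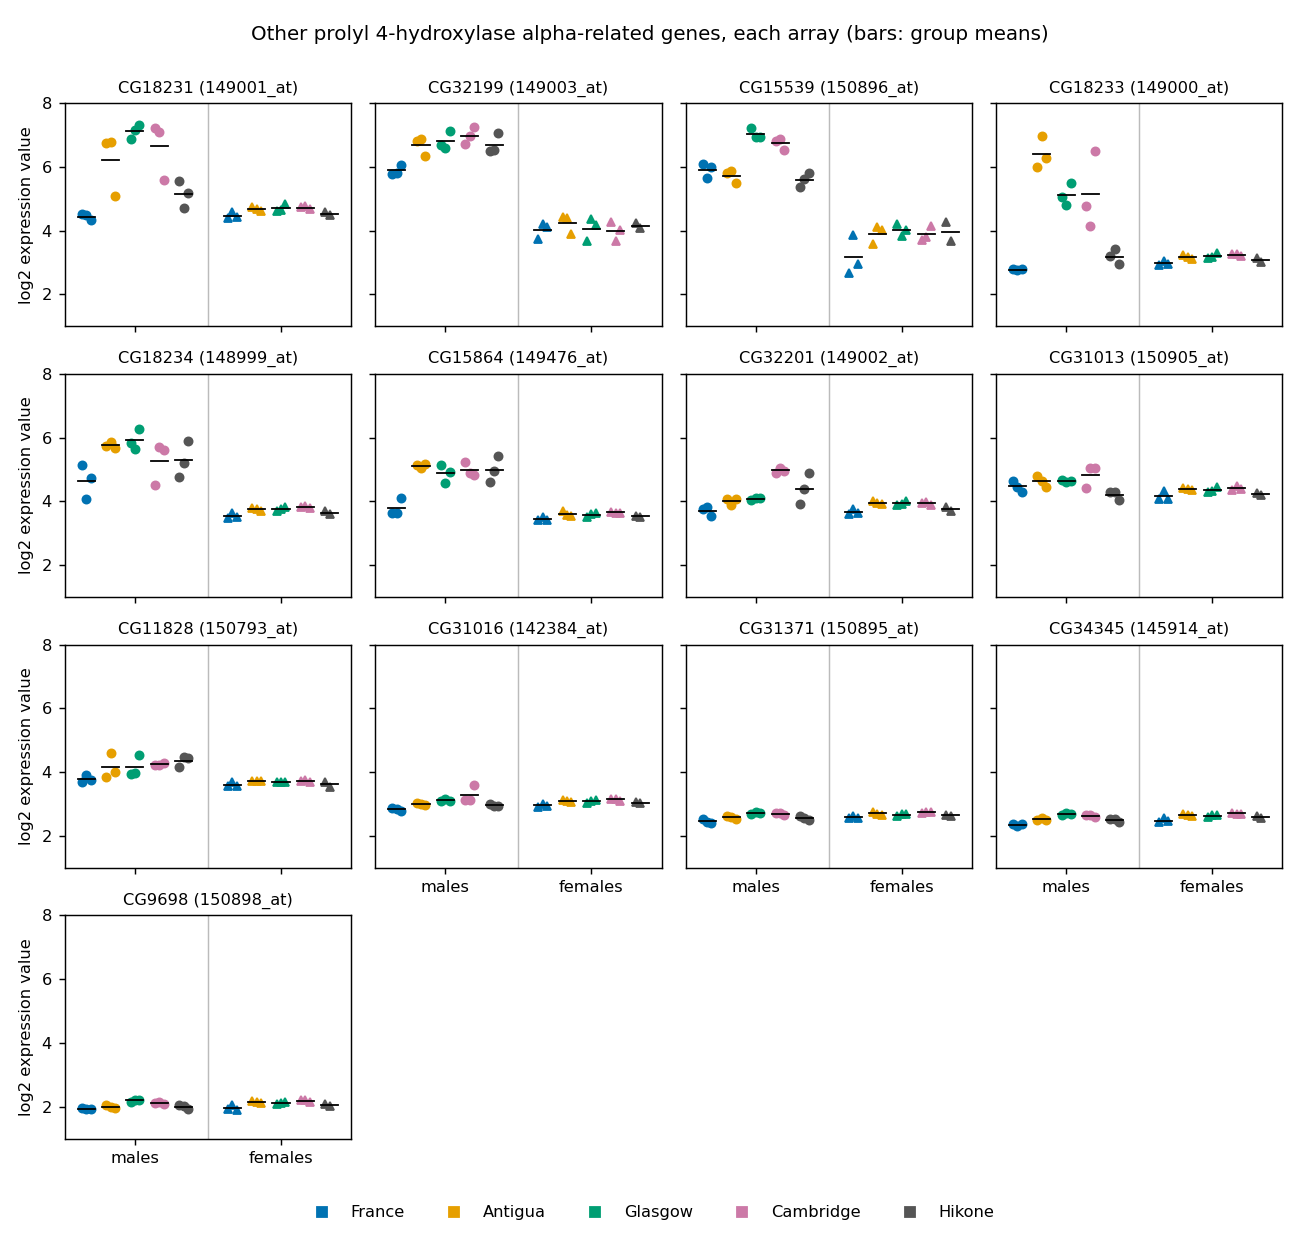
Log2 expression value (vertical axis) of the 13 measured genes related to the prolyl 4-hydroxylase alpha subunit on each of the 29 arrays, males as circles on the left and females as triangles on the right of each panel, coloured by strain, with a bar at each group mean. CG32199, CG15539 and CG18234 are higher in the males of every strain, whereas CG18233 is above the females in Antigua, Glasgow and Cambridge males only.

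Beside the family, 5 further lists were taken, called the pathway lists here. They hold collagens, collagen modification and export genes, other basement membrane proteins, oxygen-sensing genes and oxidative protein folding genes. The lists thus go beyond the substrates and partners of the enzyme. Of their 25 measured genes, 12 (beside 46.8% of all probe sets) were called between the sexes, 4 higher in males (beside 18.1%) and 8 higher in females (beside 28.8%), shares close to those of all probe sets. Among strains 7 were called in females (beside 6.53%) and 5 in males (beside 9.67%), and 2 for the interaction (beside 2.56%), and the median difference between the sexes was -0.15, against -0.08 over all probe sets. Without France female replicate 2, or without any 1 Glasgow female, the count in females fell from 7 to 4. These lists share several genes with the haemocyte and basement membrane markers.

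Averaged over the strains, the collagen IV chains were higher in females: Col4a1 by 0.64 (difference -0.64, limma adjusted p = 0.00020) and vkg by 0.78 (difference -0.78, adjusted p = 0.0019), while the collagen XV/XVIII gene Mp was higher in males by 0.53 (adjusted p = 0.0056). The size varied by strain, from -1.46 in Antigua to 0.14 in France for Col4a1 and from -1.60 in Antigua to 0.15 in France for vkg, so that females were not higher in France, and the interaction was not called for either (adjusted p = 0.016 and 0.79). Both collagen IV chains also differed among strains in either sex. In males Col4a1 was at 8.90 (SD 0.19, n = 3) in France, 7.70 (SD 0.21, n = 3) in Hikone and between 6.84 and 7.05 in the other three strains (adjusted p = 6.9e-07). The vkg means were 9.48 (SD 0.45, n = 3) in France and 8.07 (SD 0.31, n = 3) in Hikone males, and between 6.89 and 7.21 in the others (adjusted p = 3.1e-06). Among females, Glasgow was lowest, with 7.17 (SD 0.01, n = 3) for Col4a1 and 7.29 (SD 0.06, n = 3) for vkg.

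Of the genes that modify collagen in the endoplasmic reticulum, Plod, the lysyl hydroxylase, was lower in males by a difference of -2.78 (adjusted p = 1.9e-15), with female group means between 7.09 and 8.35 and male group means between 4.68 and 5.14. Pdi, the protein disulfide isomerase that can serve as beta subunit, was higher in males by 0.42 (adjusted p = 0.00081) and was not called among strains in either sex (adjusted p = 1). In the list of oxygen-sensing genes, Hph, the prolyl hydroxylase of the hypoxia factor, differed by -1.31 (adjusted p = 4.6e-13) and tgo, the partner of that factor, by -2.14 (adjusted p = 2.4e-10), both higher in females. In the list of oxidative protein folding, 1 of 5 genes was called between the sexes, the chaperone Gp93, with 0.41 (adjusted p = 4.8e-05).

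Of the other basement membrane genes, Pxn, the haemocyte peroxidasin, was at 8.81 (SD 0.18, n = 3) in Hikone males and between 5.35 and 5.92 in the other male groups (adjusted p = 2.5e-12 among strains in males). Hikone males were thus set apart by Pxn as well as by probe set 142347_at of PH4alphaNE1, though not by its probe set 141893_at. LanA and LanB2, laminin chains, were higher in females on average over the strains, by differences of -1.50 (adjusted p = 1.1e-10) and -0.66 (adjusted p = 0.00012). The average did not hold for LanB2 in Glasgow, where males were above females by 0.84 (SE 0.15), and its other strain differences lay between -1.62 and -0.50 (adjusted p of the interaction = 7.9e-05). LanB2 differed among strains in females, from 4.97 (SD 0.41, n = 3) in Glasgow to 7.31 (SD 0.10, n = 3) in Antigua (adjusted p = 7.3e-08).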

How the data were processed

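Whole-fly RNA was labelled as biotinylated cRNA and hybridised to 29 Affymetrix Drosophila Genome 1 arrays. The authors deposited log2 expression values computed by GCRMA, which corrects background by probe sequence, normalises by quantiles and gives 1 value per probe set. The version was not given in the sources used here, and no presence calls were used. The authors discarded 1 Hikone female array. Of the deposited columns, 0 had no sample in the labels, and no pair of replicates was identical.

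The deposited values were used unchanged. The 44 array controls were left out and all other 13966 probe sets were tested. Genes were named through the platform annotation and a RefSeq gene table (Release 6): 12442 probe sets had 1 symbol, 327 several and 1197 none, and 12393 of the first were found in the table. The files name no genome build, so no coordinates are given. A linear model of the 10 group means was estimated in limma 3.58.1 (R 4.3.3) with empirical Bayes moderation, and p was Bonferroni-adjusted over all tested probe sets, with a call at an adjusted p under 0.01. Standard errors come from this fit. The contrasts were males against females averaged over strains, strains within females, strains within males, and the interaction. On simulated data with 200 probe sets changed by 1 on the log2 scale among 13966, 94% were recovered between the sexes, 60% and 63% among strains in females and males and 39.5% for the interaction, and by 2, 99.5%, 94%, 94.5% and 78%. The number of arrays limits the precision.

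The members, the related genes, the pathway and marker lists and the tests were chosen with earlier results of these data known. Named were all member probe sets, called related genes whose highest group mean reached 5 or else the top genes of a contrast, up to 3 called genes per pathway list, and for each member with such a mean the 3 probe sets most correlated with it. Where a gene had several probe sets, each member probe set is given, and for other genes the one with the highest mean. CG34345 and CG32201 were named in addition, after their values were seen. The alternatives were median centring, repeated quantile normalisation, a filter on low values, a variance trend, other adjustments and thresholds, array weights, each sex alone, controls kept, the replicate block and leaving out each array.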

Additional observations from a re-analysis of the deposited data

Results flagged for a closer look

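In 4 results the male minus female difference was not the same in all strains, by the interaction term of the model. For PH4alphaNE3 (151549_i_at) the largest and the smallest of the 5 strain differences, those of Cambridge and Hikone, lay 7.57 apart on the log2 scale. For PH4alphaNE1 (142347_at) they lay 2.52 apart, between Hikone and Antigua. These 2 probe sets belong to a family chosen for such values, so they are given as a description. For Pxn the spread was 2.82 (limma Bonferroni-adjusted p = 2.1e-06) and for LanB2 it was 2.46 (adjusted p = 7.9e-05). Single arrays far from their group were not looked for by rule, since every group had 3 arrays or fewer.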

How the results depend on the processing

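The 4 counts for members were 4, 0, 3 and 2 (sexes, strains in females, strains in males, interaction), those for related genes 6, 0, 4 and 0, and those for the pathway lists 12, 7, 5 and 2. Median centring of each array, or repeated quantile normalisation, called 7 members between the sexes, since the flat probe sets then passed. Of all probe sets, 72.2% and 56.1% were called there, against 46.8% with the deposited values. Repeated normalisation also left 2 related genes among strains in males, beside 8.18% of all probe sets. With only probe sets reaching a group mean of 5, 3 member probe sets remained, through males alone. PH4alphaNE1 142347_at, with a highest group mean of 4.2, left by this filter. The interaction then counted 1 member and 4 pathway genes. The share over all probe sets in that setting is not given here, so nothing is read from these counts. A variance trend with robust moderation called 6 members among strains in males, beside 14.4% of all probe sets. Benjamini-Hochberg adjustment, under which 77.5%, 44.9%, 62% and 19.6% of all probe sets were called, gave 8, 3 and 8 members in the first 3 contrasts, 11, 2, 12 and 5 related genes, and 20, 14, 11 and 11 pathway genes. At an adjusted p under 0.05, 5 members were called among strains in males and 4 pathway genes for the interaction. The members added were PH4alphaMP and PH4alphaNE1 141893_at, both near the floor. The share of all probe sets called at this looser threshold is not given here, so nothing is read from the rise. Array weights, whose estimation did not converge, called 7 members among strains in males, 2, 8 and 2 related genes in the last 3 contrasts, and 12 pathway genes among strains in females and 8 for the interaction. In those last 3 contrasts the weights called 31%, 24.7% and 10.1% of all probe sets. With each sex fitted on its own, 0 related genes remained called among strains in males (3.41% of all probe sets were). The same fits called 2 pathway genes in males and 2 in females (0.909% of all probe sets were). Leaving out 1 array at a time gave 4 to 4, 0 to 0, 2 to 4 and 2 to 2 members, 5 to 7, 0 to 0, 1 to 5 and 0 to 1 related genes, and 11 to 12, 4 to 8, 4 to 5 and 2 to 3 pathway genes. The replicate block changed no count of members or related genes (4, 0, 3 and 2, and 6, 0, 4 and 0) and gave 11 pathway genes between the sexes in place of 12. The numbers were not taken to pair the samples, since deviations of same-numbered males and females correlated between -0.06 and 0.43, over 0.1 in 6 of 14 pairs, and 8 of 15 males correlated best with their own number. Of the single differences between the sexes, none was reversed, and 792 kept their side of the threshold, 29 gained and 2 lost a call, both of CG18231. Except where a reason is given, the cause was not tested. Signal near the low end of the arrays limits what the flat probe sets can resolve.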
